A study of Mus musculus with 6 samples.

Results

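Store-operated calcium entry refills the calcium store of the endoplasmic reticulum (ER) from outside the cell, and the transcripts of 10 of its core genes were followed here in mouse embryonic cells with and without *mir-302*. The 10 genes were taken by symbol: the ER calcium sensors *Stim1* and *Stim2*, the plasma membrane channels *Orai1*, *Orai2* and *Orai3*, the inositol trisphosphate (IP3) receptors *Itpr1*, *Itpr2* and *Itpr3*, and the ER calcium pumps *Atp2a2* and *Atp2a3*. They are 10 of the 55414 genes in the count table, and all 10 were among the 16353 that passed the filter on low counts. The set was chosen by the KO-against-WT difference of *Stim2* in these counts, since *Stim2* was already known to be among the genes with the strongest evidence of a higher level in these KO libraries. For this reason the KO-against-WT values of the 10 genes are given as a description, without a p-value.

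The 6 mRNA libraries came from embryos at E10.5, 3 miR-302 WT and 3 miR-302 KO, all carrying *Pdx1-Cre* and tdTomato. The parents were *Pdx1-Cre* males and *Rosa26* loxP-STOP-loxP-tdTomato females, each heterozygous for the *mir-302* deletion. The KO is therefore a deletion of the whole embryo, and Cre served only to turn on the red label in cells with a history of *Pdx1* promoter activity, which includes parts of the gut beside the pancreatic buds. Labelled cells were isolated by FACS from dissociated trunks, and the number of embryos behind a library is not given in the sources used here. Nothing in the labels says that replicates came from separate animals, so the p-values below measure only the spread between these libraries.

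The ER holds calcium at a far higher concentration than the cytosol. When IP3, made by phospholipase C, opens IP3 receptors and the store empties, STIM proteins in the ER membrane lose calcium from their luminal side, cluster at contacts with the plasma membrane and open ORAI channels, and SERCA pumps return the entering calcium to the ER. STIM2 responds to smaller drops in ER calcium than STIM1, and in exocrine and endocrine pancreas this cycle feeds the calcium signals that drive secretion.

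The *mir-302* locus encodes miR-302a, miR-302b, miR-302c, miR-302d and miR-367, each with a 5′ and a 3′ arm, and 4 of the 3′ arms are shown with their seed, bases 2 to 8, in capitals, because the seed defines the sites searched for below. They lie on chromosome 3 and are given from RefSeq, build GRCm38.p6, 5′ to 3′.
miR-302b-3p: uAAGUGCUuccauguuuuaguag
miR-302d-3p: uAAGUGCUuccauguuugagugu
miR-302c-3p: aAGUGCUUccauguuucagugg
miR-367-3p: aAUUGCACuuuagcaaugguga
The first pair share the seed AAGUGCU. The registered miR-302c-3p begins with the same 7 bases, so that its bases 2 to 8 are AGUGCUU. The locus also encodes miR-367-3p, whose seed AUUGCAC differs and was not searched for.

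None of the 10 genes had a site for the seed AAGUGCU in its longest 3′ UTR among GENCODE M21 transcripts, at 695 to 3372 bases. Other annotated 3′ UTRs of a gene were not searched. Sites were counted as 7 or 8 base matches, either a pairing with bases 2 to 8 or a pairing with bases 2 to 7 followed by A. By the same count 2959 of 13778 tested genes with a 3′ UTR, 21.5%, had such a site. Among 87 other tested calcium genes, described below, 16 had one, and *Ahcyl1*, which codes for an inhibitor of IP3 receptors, had 3. Each is shown in 22 bases of the *Ahcyl1-203* 3′ UTR with the matched bases in capitals.
Ahcyl1 position 309: actcgggAGCACTTggaccgaa
Ahcyl1 position 646: gccagcttGCACTTAccatcat
Ahcyl1 position 2392: ttcctaggGCACTTAaccatcc
The first pairs with bases 2 to 8, and the others pair with bases 2 to 7 and carry A after the match. A match of letters is a description and not a measured binding site.

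The 250 bases before the transcription start of both sensors and of *Orai1* are shown next, because *Stim2* and *Orai1* were higher in KO libraries and *Stim1* was not separated by genotype. They are from RefSeq, build GRCm38.p6, 5′ to 3′ on the strand of the gene, with GGGCGG on either strand, the GC box, in capitals.
Stim1, chr7:102267569-102267818, plus strand: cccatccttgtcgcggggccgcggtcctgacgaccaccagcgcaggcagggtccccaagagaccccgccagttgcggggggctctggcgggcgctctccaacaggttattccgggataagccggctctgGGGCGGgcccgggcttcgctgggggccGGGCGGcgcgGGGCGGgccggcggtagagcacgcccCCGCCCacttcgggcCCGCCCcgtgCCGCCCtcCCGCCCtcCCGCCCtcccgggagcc
Stim2, chr5:53998273-53998522, plus strand: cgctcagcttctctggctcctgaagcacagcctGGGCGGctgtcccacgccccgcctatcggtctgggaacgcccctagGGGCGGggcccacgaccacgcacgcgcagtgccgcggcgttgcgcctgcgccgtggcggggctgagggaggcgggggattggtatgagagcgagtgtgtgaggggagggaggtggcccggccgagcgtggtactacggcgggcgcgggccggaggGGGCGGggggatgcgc
Orai1, chr5:123014824-123015073, plus strand: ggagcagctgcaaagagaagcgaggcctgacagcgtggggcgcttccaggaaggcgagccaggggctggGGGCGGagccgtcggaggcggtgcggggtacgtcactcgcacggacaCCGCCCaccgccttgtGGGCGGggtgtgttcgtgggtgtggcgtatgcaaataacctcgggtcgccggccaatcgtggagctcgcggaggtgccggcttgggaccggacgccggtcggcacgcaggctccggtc
All were rich in G and C, with 78.4% for *Stim1*, 74.8% for *Stim2* and 70.8% for *Orai1* against a median of 52.4% over 32851 promoters of this length. *Stim1* had 8 GC boxes, *Stim2* 3 and *Orai1* 3, and 32.7% of all promoters held at least 1. CpG dinucleotides numbered 31, 30 and 30, against a median of 6. CCAAT, searched on both strands, was found once in *Stim2* and once in *Orai1*, in neither case overlapping a GC box, but not in *Stim1*. Of all promoters 33.8% held it. It was also found in promoters not shown, 1 time in *Orai3* and 2 times in *Itpr2*, whose levels overlapped between genotypes. *Atp2a2*, which was also higher in KO libraries, had no promoter among the sequences used. Neither CACGTG, present in 6.02% of promoters, nor TATAAA, present in 12.4%, occurred in any of the 3. *Stim1*, the gene of the 3 whose libraries overlapped, had the highest GC share and the most GC boxes. The 3 were picked by their levels, and the part of promoter sequence in those levels was not tested.

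Levels are CPM, counts scaled to a common library total, after TMM scaling, which adjusts library totals for composition. Total counts ran from 17352498 to 26634523 per library. Transcripts of the *mir-302* cluster gave no check of the genotypes. *Mir302d* had 2 counts in 1 KO library, under the floor of 3, and the other genes of the cluster, *Mir302a*, *Mir302b*, *Mir302c* and *Mir367*, were at 0 in every library. *Larp7*, the gene that hosts the cluster, had a WT mean of 63.3 ± 11.3 CPM and a KO mean of 61.9 ± 3.61 CPM (SD, n = 3). *Pdx1*, the factor that defines pancreatic progenitors, was present at 73.1 to 108 CPM in all 6 libraries, and the 12 progenitor markers summed to 1052 to 1193 CPM in WT and 1144 to 1331 in KO. Of these markers *Gata4* (log2 0.63) and *Gata6* (1.33) were called higher by DESeq2, beside 4.22% of all genes, and the other 10 were not called. Both had all KO libraries above WT, beside 8.36% of all tested genes. Libraries differed in other cells: 8 markers of primitive red cells summed to 15950 CPM in WT replicate 3 and 6384 in KO replicate 1 against 0.912 to 337 in the other 4. The 7 mesenchyme markers ran from 176 to 1044 CPM in WT and from 35.8 to 1052 in KO. The 8 endocrine markers summed to 1069 to 5038 CPM in WT and 1926 to 5581 in KO.

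Of the sensors, *Stim2* was higher in KO libraries and *Stim1* showed no separation of the genotypes. *Stim2* stood at 7.35, 9.50 and 7.72 CPM in WT replicates 1, 2 and 3 whereas KO replicates 1, 2 and 3 were at 19.9, 19.5 and 18.2 CPM. Every KO library lay far above every WT library, and neither group was widely spread. The WT mean was 8.19 ± 1.15 CPM and the KO mean 19.2 ± 0.916 CPM (SD, n = 3), a log2 fold change of 1.23 with a standard error of 0.16, or 2.35-fold. These values rest on 156 to 170 counts per WT library and 334 to 535 per KO library. In the order of edgeR's evidence across all tested genes *Stim2* was at place 10, and by size of the log2 fold change it was at place 370 from the top.

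*Stim1*, which codes for the sensor of deeper store depletion, was at 16.2, 14.5 and 15.1 CPM in WT and at 19.0, 12.1 and 21.5 CPM in KO. The lowest of all 6 libraries and the highest were both KO, so the spread within KO (SD 4.85 CPM) exceeded the difference of the means, which was 0.20 ± 0.22 on the log2 scale (SE). Since both sensors were counted in the same libraries, their ratio does not depend on the scaling. For each *Stim1* count there were 0.455, 0.654 and 0.511 *Stim2* counts in WT and 1.05, 1.61 and 0.846 in KO, without overlap. Thus *Stim2* counts passed *Stim1* counts in KO replicates 1 and 2 only.

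Of the channels, *Orai1* was higher in KO libraries, whereas *Orai2* and *Orai3* overlapped. *Orai1*, which codes for the main pore of store-operated entry in many cells, was at 2.78, 5.14 and 2.77 CPM in WT and at 9.28, 7.06 and 7.40 CPM in KO. All KO libraries lay above all WT libraries, and WT replicate 2 was the WT library nearest to them. The log2 fold change was 1.16 ± 0.30 (SE) from a mean of 3.56 ± 1.37 CPM to 7.92 ± 1.19 CPM (SD, n = 3). In WT it had the fewest counts of the 10 genes, 57 to 92 per library, against 124 to 249 per KO library, and its estimate was the least certain of the 3 that separated.

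*Orai3*, a channel gene particular to mammals, was at 23.9, 31.9 and 26.3 CPM in WT and 28.7, 32.9 and 31.4 CPM in KO. KO replicates 1 and 3 lay within the range of WT, and the log2 difference was 0.18 ± 0.15 (SE). *Orai2*, whose protein can join ORAI1 in mixed channels, was at 12.6, 13.0 and 12.4 CPM in WT and at 8.50, 13.7 and 13.9 CPM in KO. KO replicate 1 was the low library and the other 2 KO libraries lay above WT, giving a log2 difference of -0.08 ± 0.22 that turned to 0.14 without KO replicate 1.

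None of the IP3 receptors separated the genotypes, and their fitted differences were all below zero. *Itpr1* was at 24.6, 27.4 and 28.3 CPM in WT and at 17.8, 18.3 and 26.1 CPM in KO (log2 -0.37 ± 0.18, SE). KO replicates 1 and 2 were under all WT libraries, and KO replicate 3 was among them. *Itpr2*, the receptor with the highest affinity for IP3, was at 9.76, 8.77 and 7.38 CPM in WT and at 5.18, 7.86 and 5.12 CPM in KO (log2 -0.51 ± 0.24). Here KO replicate 2 was the library that overlapped WT. *Itpr3*, the receptor that predominates in many epithelia, was at 32.0, 46.8 and 43.5 CPM in WT and at 29.3, 32.5 and 57.4 CPM in KO (log2 -0.04 ± 0.28). Its highest library and its lowest were both KO, and the difference ran from -0.37 to 0.15 as single libraries were left out.

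Of the pumps, *Atp2a2* had the largest difference of the 10 genes. *Atp2a2* codes for SERCA2, the ER calcium pump present in nearly all cells. It was at 40.1, 71.6 and 43.6 CPM in WT and at 193, 151 and 119 CPM in KO. No KO library reached down to the highest WT library, and both groups were spread, with WT replicate 2 high among WT and KO replicate 1 high among KO. The means were 51.7 ± 17.3 CPM and 154 ± 37.4 CPM (SD, n = 3), a log2 fold change of 1.58 ± 0.26 (SE) or 2.99-fold. *Atp2a3*, which codes for SERCA3, a pump of lower calcium affinity found in blood, endothelial and secretory cells, was at 16.7, 36.7 and 40.2 CPM in WT and at 28.3, 48.1 and 26.6 CPM in KO (log2 0.14 ± 0.37). Its libraries overlapped broadly, and the difference ran from -0.17 to 0.39 as single libraries were left out.

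**Figure D1:**
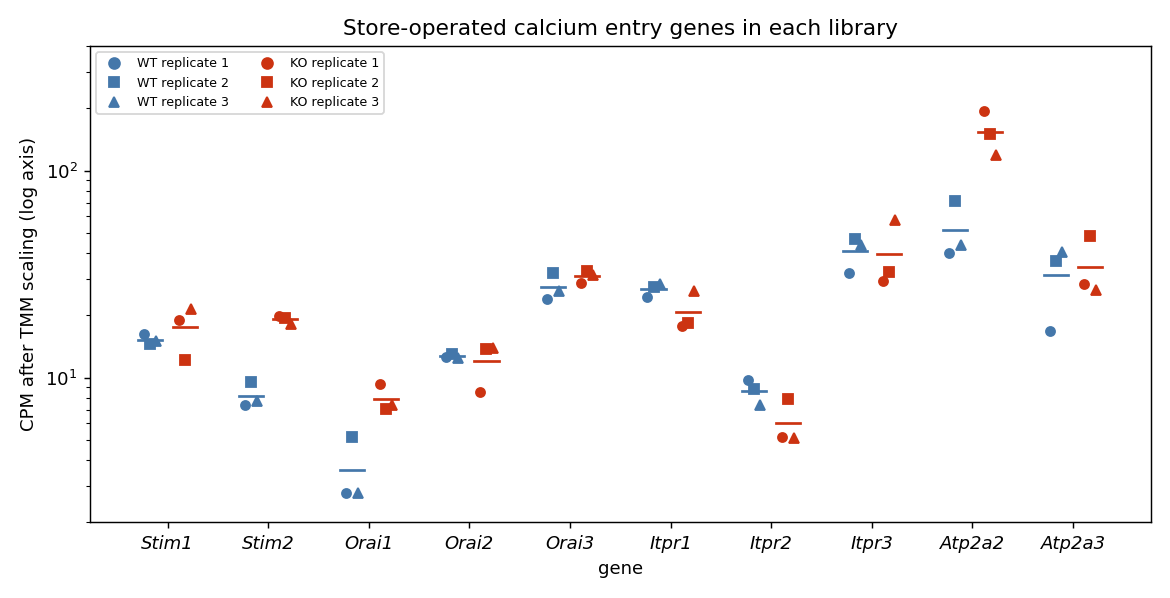
Level of each of the 10 genes in each library, in CPM after TMM scaling on a log axis, with WT in blue, KO in red, a symbol for each replicate number and a bar at the mean of 3 libraries. For *Stim2*, *Orai1* and *Atp2a2* every red point lies above every blue point, and for the other 7 genes the colours overlap.

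As a set, 6 of the 10 genes were higher in KO and 4 lower, and the median log2 fold change was 0.16 beside -0.02 over all tested genes. After Benjamini-Hochberg adjustment, the quasi-likelihood test of edgeR called 0 of the 10, and 0 (0%) of all 16353 tested genes. At an unadjusted p under 0.05 it passed 3 of the 10, all higher, against 1050 genes or 6.42% of all tested in that direction (10.4% in either). DESeq2, the tool named in the study's methods, called *Stim2*, *Orai1* and *Atp2a2* as higher, against 606 of 14353 genes with an adjusted p, or 4.22% (4.87% in either direction). KO libraries were above all WT libraries for these 3 genes, beside 8.36% of all tested genes, and below them for 0 of the 10, beside 7.99%. Single libraries mattered to these calls. Without WT replicate 2, edgeR called 217 genes, *Stim2* and *Atp2a2* among them. Without any 1 of WT replicate 1, WT replicate 3 and KO replicate 1, DESeq2 called *Stim2* and *Atp2a2* but not *Orai1*. Without KO replicate 3 it called *Itpr1* lower in place of *Orai1* higher. In that order these fits called 450, 408, 296 and 862 genes in all. Because the set was chosen for a gene with this difference, these counts carry no weight as evidence about the set. In bulk libraries, fewer cells of a type and less RNA per cell cannot be told apart.

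Within their families, *Stim2*, *Orai1* and *Atp2a2* held a larger share of the transcript in KO. Levels were divided by the length of the union of a gene's exons in GENCODE M21, in CPM per kb, for this comparison. *Atp2a2* made up 67.5%, 62.9% and 48.5% of the summed pump level per kb in WT and 85.6%, 73.1% and 79.5% in KO. *Orai1* made up 8.38%, 11.6% and 7.77% of the summed channel level per kb in WT and 21.5%, 14.9% and 16.0% in KO, while *Orai3* held 71.1% to 79.1% in all 6 libraries. Neither share overlapped between genotypes. The sum over both pumps, at 9.76 to 18.7 CPM per kb in WT and 24.6 to 37.1 in KO, and the sum over both sensors, at 2.96 to 3.25 and 4.97 to 5.72, did not overlap either. The summed level of the channels overlapped, at 14.5 to 19.3 and 18.8 to 20.7 CPM per kb, as did that of the IP3 receptors.

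**Figure D2:**
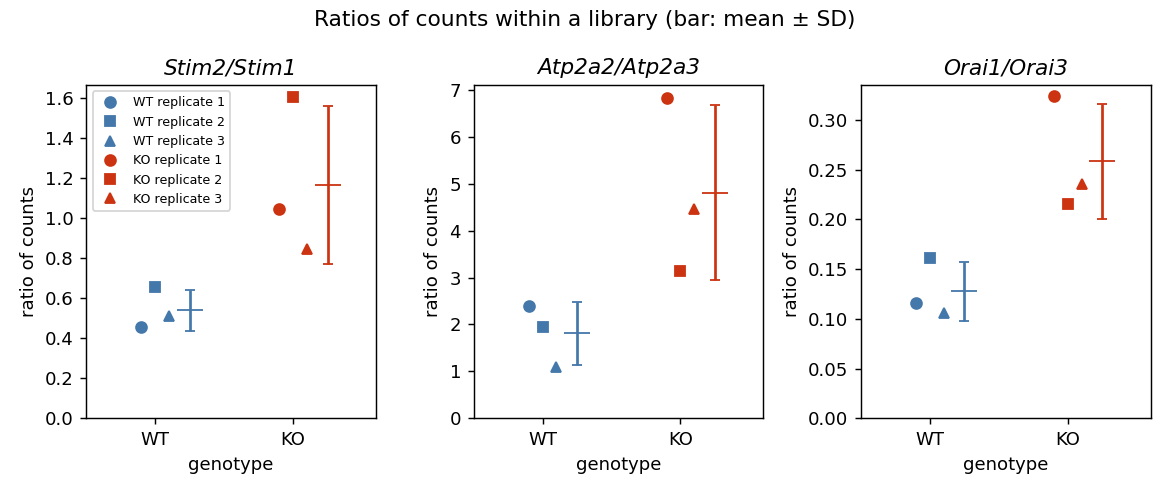
Ratios of counts between paralogues within each library, unaffected by library scaling, with WT in blue, KO in red and bars at the mean ± SD of 3 libraries. In each pair the KO ratios lie above the WT ratios, from 0.455 to 0.654 up to 0.846 to 1.61 for *Stim2* over *Stim1*.

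Ordered by WT level per kb, *Orai3* was highest at 11.2 to 14.9 CPM per kb, followed by *Atp2a2*, *Atp2a3*, *Itpr3*, *Orai2*, *Stim2*, *Orai1*, *Stim1*, *Itpr1* and *Itpr2*, the last at 0.499 to 0.659. Neighbours in this order were apart in only 3 places, between *Itpr3* and *Orai2*, between *Orai2* and *Stim2* and between *Itpr1* and *Itpr2*; the ranges of all other neighbours overlapped. Lengths matter to this order, since the annotated transcripts of some genes differ widely. With the longest single transcript in place of the union, the mean WT level of *Stim1* went from 1.47 to 3.50 CPM per kb, above *Stim2* at 1.66, and *Itpr1* went from 1.46 to 2.71.

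Across the 6 libraries the gene most like *Stim2* was *Tsc22d2*, with a Pearson correlation of log2(CPM + 0.5) of 0.994, followed by *Ccny* (0.991), *Ahcyl1* (0.991), *Pom121* (0.990) and *Itsn2* (0.990) among 16352 genes compared. *Atp2a2* ranked 56 with 0.975 and *Orai1* ranked 237 with 0.951, whereas *Stim1* had 0.246. These values mostly restate the difference between genotypes, which was the reason for choosing *Stim2*. After the mean of each genotype was taken off, the most like were *Gm2058*, *Gm648*, *Parp6*, *Vps45* and *Dusp5* (0.992 to 0.998). By that measure *Atp2a2* ranked 215 with 0.942 and *Orai1* ranked 300 with 0.924. *Orai3*, which overlapped between genotypes, ranked 1130 with 0.777, and *Stim1* was at -0.30. The points are 6 libraries that differ in depth and cell content, and every gene is exposed to the same differences, so these are descriptions only.

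The wider calcium machinery was followed through 102 further genes in 10 lists, of which 87 were tested. In KO, 51 of these were higher and 36 lower, and their median log2 fold change was 0.02. edgeR's adjusted test called 0 of them, and at an unadjusted p under 0.05 it passed 12 higher, beside 6.42% of all tested genes, and 1 lower, beside 3.97%. DESeq2 called 9 higher of the 82 it gave an adjusted p, beside 4.22% of all genes, and 0 lower, beside 0.648%. The 9 were *Slc35g1*, *Ubqln1*, *Plcg1*, *Gna11*, *Ahcyl1*, *Tmem165*, *Micu2*, *Mcur1* and *Ppp3ca*. Of the 87 tested genes, 13 had all KO libraries above all WT libraries, these 9 among them, beside 8.36% of all tested genes. In 2 of the 87 all KO libraries lay below, beside 7.99%. The lists were chosen with earlier results of these data known, so these counts are no evidence about calcium genes as a set. Shares within classes of GC content are given below. With single libraries left out DESeq2 called 6 to 10 of the calcium genes, beside 296 to 862 of all genes. Without both WT replicate 3 and KO replicate 1 it called 2, beside 69 of 14043 genes. Without WT replicate 2 edgeR called 7, beside 217 of 17000 genes.

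Genes that act on STIM and ORAI proteins numbered 14, and DESeq2 called 2 of the 14 higher, beside 4.22% of all genes. *Ubqln1*, whose product ubiquilin 1 binds proteins bound for degradation and has been tied to ORAI1 turnover, was at 104, 172 and 99.5 CPM in WT and at 299, 288 and 251 CPM in KO. Its log2 fold change was 1.16 ± 0.21 (SE), with a Benjamini-Hochberg adjusted p of 0.13 by edgeR and 4.2e-06 by DESeq2. *Slc35g1*, which codes for a partner of STIM1, had a log2 fold change of 1.09. *Saraf*, whose product turns store-operated entry off, was at 136 to 171 CPM in WT and 152 to 163 CPM in KO (log2 0.06 ± 0.10), and *Tmem110*, whose product STIMATE promotes STIM1 clustering, was at 27.9 to 38.4 and 36.7 to 50.4 CPM (0.37 ± 0.18). Both overlapped between genotypes. Of 7 TRPC channel genes 2 were tested, and *Trpc1* was at 1.65 to 2.51 CPM in WT and 3.10 to 4.40 in KO, with an adjusted p of 0.37 by edgeR and 0.33 by DESeq2.

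Upstream of the IP3 receptors, 2 of 12 tested genes for IP3 production were called higher by DESeq2, beside 4.22% of all genes. *Plcg1*, the phospholipase C that acts after receptor tyrosine kinases, was at 33.5, 79.7 and 36.9 CPM in WT and at 135, 112 and 116 CPM in KO (log2 1.28 ± 0.32), with an adjusted p of 0.18 by edgeR and 0.00043 by DESeq2. WT replicate 2 again lay between the other WT libraries and KO. *Gna11*, a G protein subunit that activates phospholipase C beta, had a log2 fold change of 0.74, and *Plcb3*, a phospholipase of that class, had 0.14 ± 0.15 with overlap.

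Among modulators of IP3 receptors, *Ahcyl1* was the single gene of 11 tested that DESeq2 called, beside 4.22% of all genes called higher. It was at 56.2, 80.6 and 56.4 CPM in WT and at 162, 150 and 130 CPM in KO. The log2 fold change of 1.20 ± 0.16 had an adjusted p of 0.13 by edgeR and 1.6e-08 by DESeq2. It was also the 1 called gene of the 9 that held a match to the *mir-302* seed. *Itprip*, whose product dampens receptor opening, was at 44.2 to 51.9 CPM in WT and 31.4 to 50.1 in KO. Among 16 calcium genes with a match, the log2 fold changes of the other 15 ran from -0.35 to 0.57.

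Genes that hold calcium in the ER included no called gene. None of 10 tested ER calcium-binding chaperones was called by DESeq2, beside 4.87% of all genes. None passed an unadjusted p under 0.05 by edgeR, beside 10.4%. Their log2 fold changes ran from -0.26 to 0.20. *Hspa5*, the ER chaperone BiP, a usual readout of ER stress, was at 2146 to 2348 CPM in WT and at 2189 to 2926 CPM in KO, and *Calr*, the main ER calcium buffer calreticulin, was at 770.0 to 1050.4 and 842 to 1083. *Tmco1*, which codes for an ER calcium leak channel, differed by 0.01 ± 0.12. The ryanodine receptors, release channels of excitable cells, had low levels. *Ryr1* was at 1.13 to 5.29 CPM in WT and 1.14 to 3.48 in KO. *Ryr3* was at 0.613 to 2.48 CPM in WT and 0.285 to 0.559 in KO, with an adjusted p of 0.32 by edgeR, and *Ryr2* at 0.330 to 2.35 and 0.912 to 3.13.

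Calcium leaves the cytosol through plasma membrane pumps and exchangers, Golgi pumps and mitochondria. *Atp2b1*, which codes for a widely used plasma membrane calcium pump, was at 119 to 151 CPM in WT and 112 to 161 in KO, and *Atp2b4* at 2.12 to 3.93 and 2.39 to 3.39. *Slc8a2*, a sodium-calcium exchanger, was at 0, 0.391 and 0.243 CPM in WT and at 0.596, 1.65 and 0.653 CPM in KO, with KO above WT in all libraries. Its fitted log2 fold change of 2.18 ± 0.92 was the highest of the 87 genes but rests on 0 to 7 counts per WT library and 12 to 29 per KO library, with an adjusted p of 0.48 by edgeR. *Tmem165*, a Golgi protein of calcium and manganese transport, was at 19.7, 48.7 and 19.9 CPM in WT and at 118, 89.8 and 72.3 CPM in KO (log2 1.67 ± 0.38, adjusted p of 0.16 by edgeR and 3.5e-05 by DESeq2). The Golgi pump *Atp2c1* was at 159 to 195 and 146 to 189 CPM. In mitochondria *Mcur1*, which codes for a regulator of the uniporter, was at 2.17 to 5.59 CPM in WT and 7.67 to 13.0 in KO (1.68 ± 0.40), and *Micu2*, a gatekeeper of the uniporter, was 0.48 higher on the log2 scale. The uniporter pore gene *Mcu* (-0.22 ± 0.18) overlapped.

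Downstream of calcium entry, calcineurin dephosphorylates NFAT factors. *Ppp3ca*, the main catalytic calcineurin subunit, was at 19.7, 21.8 and 19.96 CPM in WT and at 40.0, 34.0 and 33.2 CPM in KO (log2 0.80 ± 0.13), with an adjusted p of 0.13 by edgeR and 2.4e-05 by DESeq2. It was the 1 gene of 14 tested in the calmodulin, calcineurin and NFAT list that DESeq2 called, beside 4.22% of all genes called higher. *Rcan1*, a calcineurin inhibitor whose transcription responds to NFAT, was at 115 to 151 CPM in WT and 109 to 147 in KO. *Nfatc3* (0.01 ± 0.14) and *Nfatc4* (0.13 ± 0.17) overlapped as well.

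**Figure D3:**
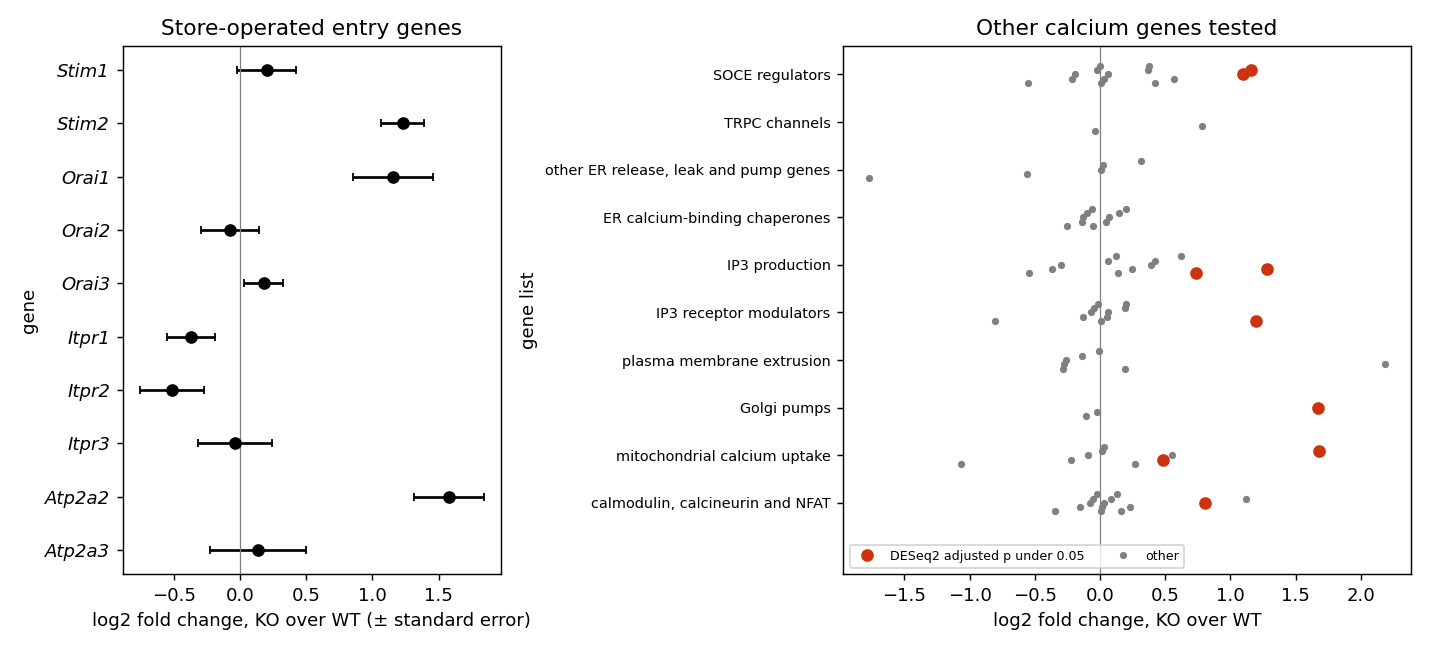
Log2 fold change of KO over WT from the edgeR fit, with standard errors for the 10 store-operated entry genes (left) and as points for the 87 other tested calcium genes by list (right), where red marks a DESeq2 adjusted p under 0.05. The 9 red genes run from 0.48 to 1.68, and the ER chaperones from -0.26 to 0.20.

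The 3 store-operated entry genes that separated and the 9 called calcium genes had the same highest WT library. WT replicate 2 was the WT library nearest to KO in all 12, at 0.09 to 0.85 above the WT mean of log2(CPM + 0.5) with a median of 0.51, whereas WT replicates 1 and 3 were below that mean in all 12. Among all 16 of the store-operated entry and other calcium genes with KO above WT, WT replicate 2 was the highest WT library in 15, and among all 1367 such genes in 869, or 63.6%. In this library the mesenchyme sum was the lowest of WT, at 176 CPM. The progenitor, endocrine, hepatoblast, gut endoderm and neural sums were the highest of WT, at 1193, 5038, 1921, 52.5 and 33.7 CPM. The part of these cell types in the place of WT replicate 2 was not tested. In the labels the name of this library and that of KO replicate 1 differ only in the last letter, while no other names share their number, and what the shared number marks is not given.

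**Figure D4:**
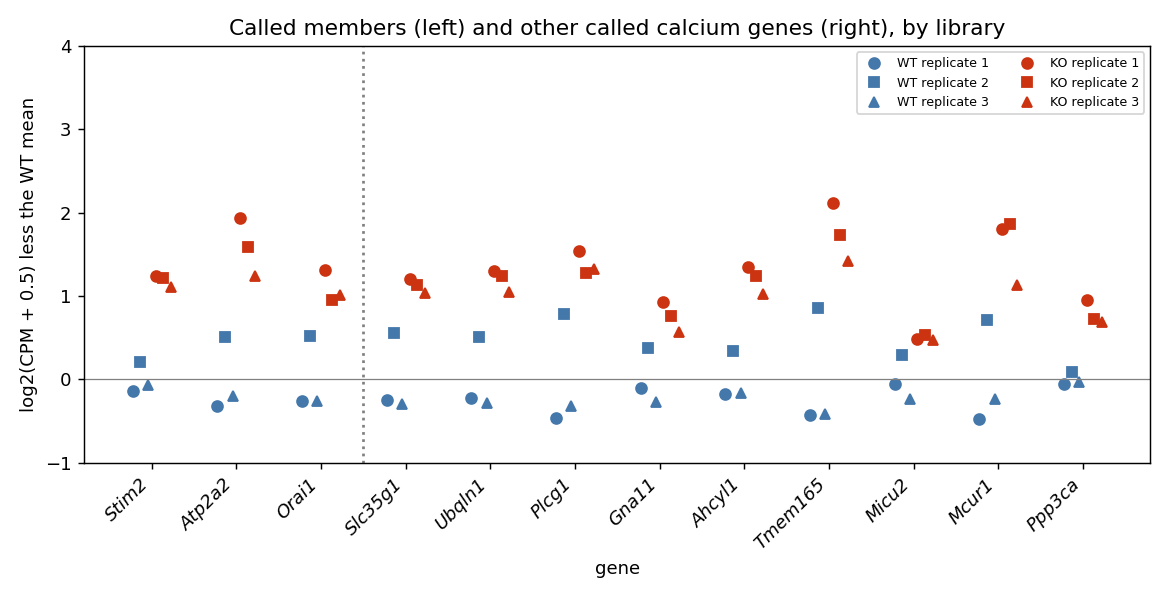
Level in each library as log2(CPM + 0.5) less the mean of the 3 WT libraries, for the 3 store-operated entry genes that separated (left of the dotted line) and the 9 calcium genes called by DESeq2 (right), with WT in blue, KO in red and a symbol for each replicate number. WT replicate 2, the blue square, is the highest WT library for all 12 genes, at 0.09 to 0.85.

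The same genes had in common a stretch of the transcript very rich in G and C. The most GC-rich 200 bases held 82% G and C in *Atp2a2*, 80.5% in *Stim2* and 79% in *Orai1*, more than in any of the other 7 genes, which ran from 65.5% in *Itpr1* to 76.5% in *Itpr3*. In *Stim2* the stretch covered bases 193 to 392 of *Stim2-201*, across the start codon at base 386, and in *Atp2a2* bases 77 to 276 of *Atp2a2-203*, before the start codon at base 490, so that both lay near the 5′ end. The 9 called calcium genes had 77% to 83.5%, so that 9 of 9 reached 75%, against 36 of the 78 others tested (46.2%) and 3675 of 13854 tested genes with a value (26.5%).

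Genes with a stretch of 80% to 85% were more often higher in KO than those of other classes across the whole table. Of 1137 tested genes with a stretch of 80% to 85%, 41.2% had all KO libraries above all WT libraries and 33.4% were called higher by DESeq2, with a median log2 fold change of 0.46. Both *Stim2* and *Atp2a2* fall in this class, as do 21 of the other calcium genes. Of these 21, 8 were called higher, a share near the 33.4% of the whole class. The class from 75% to 80%, with *Orai1* and *Itpr3*, had shares of 14.8% and 7.80%. It held 23 of the other calcium genes, 1 of them called. The richest class, above 85%, with 267 genes and none of the 10, had 15.4% and 6.05%. From 70% to 75%, where *Stim1*, *Orai2*, *Orai3*, *Itpr2* and *Atp2a3* fall, the shares were 4.70% and 0.764%. In a fit with an offset per library for the stretch, the log2 fold changes went to 0.96 for *Stim2*, 1.28 for *Atp2a2* and 0.96 for *Orai1*. DESeq2 then called *Stim2* and *Atp2a2* but not *Orai1*, beside 364 of 12421 genes called higher. This relation had been seen in these data before and is no independent support, and what part composition has in the differences was not tested beyond that offset.

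**Figure D5:**
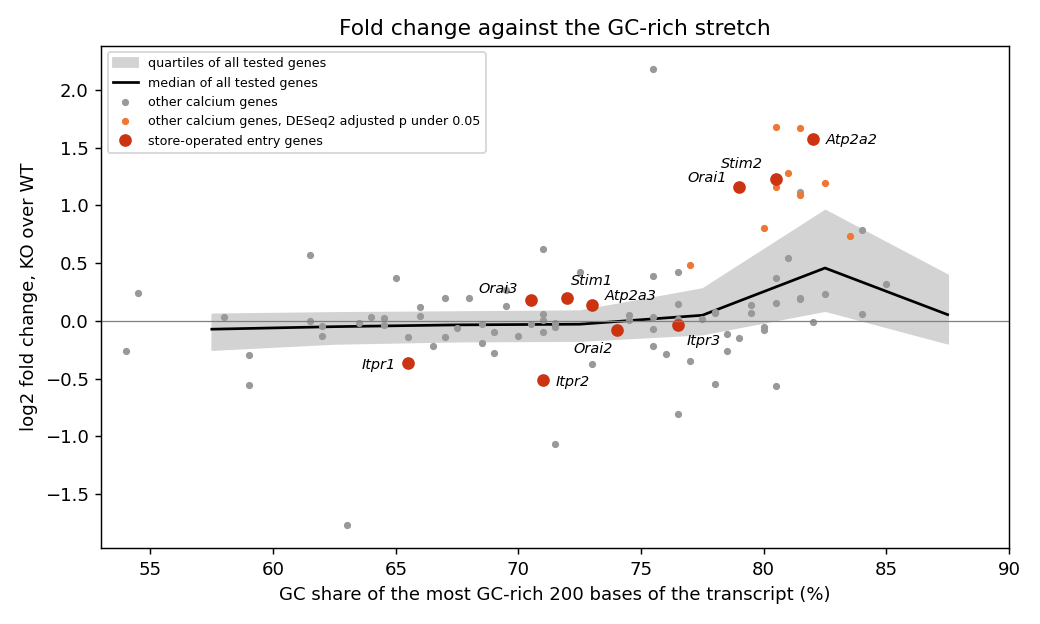
Log2 fold change of KO over WT against the GC share of the most GC-rich 200 bases of the transcript, in percent, for the 10 store-operated entry genes (large red points, named) and the other calcium genes (orange where DESeq2 gave an adjusted p under 0.05), over the median and quartiles of all tested genes in 7 classes of GC share. *Atp2a2*, *Stim2* and *Orai1* are the 3 named genes farthest to the right and the highest, above the upper quartile of all genes of like GC share.

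Other cell types were checked beside these genes. The 7 gut endoderm markers summed to 35.1 to 52.5 CPM in WT and 99.96 to 114 in KO, without overlap, and *Ihh* alone made up most of the sum, at 29.1 to 41.3 and 92.7 to 102 CPM. Of the 4 with an adjusted p, DESeq2 called *Ihh*, *Shh* and *Sox2* higher, beside 4.22% of all genes. The other, *Cdx2*, was at 4.15 to 11.2 CPM in WT and 1.80 to 5.67 in KO. None of the 7 was at 0 in all libraries, but *Cdx1*, *Nkx2-1* and *Pax9* did not pass the filter on low counts. Of these, *Cdx1* was higher in every KO library than in any WT library, and *Nkx2-1* and *Pax9* overlapped. *Nkx2-1* was at 0 in every WT library and in KO replicate 2. The part of the gut endoderm markers in the higher *Stim2*, *Orai1* and *Atp2a2* was not tested. The 6 muscle markers summed to 4.90 to 11.5 CPM in WT and to 40.7, 3.36 and 8.76 CPM in KO replicates 1, 2 and 3, beside 193, 151 and 119 CPM of *Atp2a2*, and their part in the level of *Atp2a2* was not tested. WT replicate 3 and KO replicate 1 held the most red cell RNA. Without them the log2 fold changes were 1.18 for *Stim2*, 1.29 for *Atp2a2* and 0.89 for *Orai1*. DESeq2 then called *Stim2* and *Atp2a2*, beside 62 of 14043 genes called higher. *Stim2* was chosen for its difference in these same libraries, and the part of red cell RNA in the differences was not tested. KO replicate 3, with 337 CPM of red cell markers, stayed in that fit. Endothelial sums ran from 1.71 to 29.3 CPM and platelet and white blood cell sums from 2.11 to 6.36 CPM over all libraries, and the platelet marker *Gp1bb* was at 0 in all 6.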

How the data were processed

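Libraries were prepared from SMART-seq v4 cDNA with Nextera XT and sequenced as paired-end reads of 150 bp. The authors aligned reads to GRCm39 with STAR and deposited whole-number counts per gene from GenomicAlignments, without normalization. The gene annotation, the handling of strand and the tool versions are not given in the sources used here. Gene names were matched by Ensembl identifier without version. These counts were fitted in R 4.3.3 by edgeR 4.0.16, using filterByExpr, TMM, estimateDisp, glmQLFit and glmQLFTest, with genotype as the only term and Benjamini-Hochberg adjustment over 16353 genes. DESeq2 1.42.0 was run on genes with at least 1 count. A standard error is the log2 fold change divided by the square root of F. The script was tested on simulated counts. GC stretches and seed matches used GENCODE M21 (GRCm38) transcripts, and 8 of the 10 genes had a RefSeq promoter. In the labels the library names of WT replicate 2 and KO replicate 1 share their number and differ in the last letter, and what the number marks is not given. The 10 genes, the calcium and marker lists and the genes named from them (fixed names, and the gene with the smallest edgeR p in each list, beside every gene DESeq2 called) were chosen with earlier results of these data known. The values of 1 listed calcium gene are not reported here.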

Additional observations from a re-analysis of the deposited data

How the results depend on the processing

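*Stim2*, *Orai1* and *Atp2a2* kept a higher level in KO under every alternative fit run for them. Beside 0 genes called by edgeR, DESeq2 called 699 genes, of which 9 were calcium genes and 3 were among the store-operated entry genes. edgeR without the low-count filter called 264, 5 and 2. With single libraries left out the counts ran from 0 to 217, 0 to 7 and 0 to 2 with edgeR, where only the fit without WT replicate 2 was above 0, and from 296 to 862, 6 to 10 and 2 to 3 with DESeq2 (450, 795 and 408 genes without WT replicates 1, 2 and 3, and 296, 719 and 862 without KO replicates 1, 2 and 3). DESeq2 without WT replicate 3 and KO replicate 1 called 69, 2 and 2, and with offsets for the GC-rich stretch 488, 7 and 2; these DESeq2 runs were chosen after seeing the data. The log2 fold change of *Stim2* was 1.16 to 1.37 with single libraries left out (1.18 to 1.37 by DESeq2) and 0.96 with the offsets by both tools. The cause of these shifts was not tested.

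Genes close to no difference changed sign. With single libraries left out *Saraf* ran from -0.0090 to 0.18, *Ryr2* from -0.24 to 0.75, *Tmco1* from -0.069 to 0.10, *Calr* from -0.073 to 0.16, *Plcb3* from -0.0048 to 0.26, *Itprip* from -0.22 to 0.073, *Atp2b1* from -0.13 to 0.12, *Atp2b4* from -0.35 to 0.10, *Nfatc3* from -0.070 to 0.14 and *Rcan1* from -0.16 to 0.052. Without WT replicate 3 and KO replicate 1, *Ryr2* was at -0.011, *Tmco1* at -0.0091 and *Atp2b1* at 0.13. With the offsets *Ryr2* was at -0.0037, *Plcb3* at -0.099 and *Nfatc3* at -0.096. *Atp2b1* was at 0.0078 with DESeq2, 0.0048 with DESeq2's size factors in edgeR and 0.0094 with at least 1 CPM in 3 libraries. Same-numbered WT and KO libraries correlated at -0.21, 0.29 and 0.083 after genotype means were taken off. Differently numbered ones correlated at -0.324 to 0.349, with -0.164 for WT replicate 2 and KO replicate 1. So few libraries cannot decide whether any of them share a litter or batch. A fit with the replicate block called 0 genes, with *Stim2* at 1.24. Depth limits *Orai1*, with 57 to 92 counts per WT library.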
